A study of Homo sapiens with 6 samples.

Results

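MDA-MB-231 is an established human cell line of triple-negative breast cancer, a class that lacks oestrogen and progesterone receptors and amplified HER2. The cells were kept for 24 h in disulfiram with copper (Disulfiram/Cu, here DSF/Cu) at 0.2 µM or in the vehicle DMSO, with 3 repeats in each group and the cells of 3 wells pooled into each repeat. Disulfiram inhibits aldehyde dehydrogenases and its metabolite binds copper. The agents were given together in every treated library, so the effect of disulfiram and that of copper cannot be told apart, and all libraries came from this single line. The labels do not state separate cultures for the repeats, and p-values therefore reflect only the variation among these libraries, which may be technical.

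The genes described here encode 10 enzymes that build serine, asparagine, cysteine and proline or move carbon units from serine onto folate. They were chosen by name, with earlier results of these data known, and each matched a single row among the 58825 genes of the deposited table. Gene coordinates are those of that table, on human build GRCh38 as judged from its gene IDs. All 10 passed the filter on low counts, with 352 to 16969 counts per library. Levels below are CPM, counts brought to a shared depth with TMM factors, unless FPKM is named. Pseudogenes can share reads with their parents: those of *MTHFD2*, *PSAT1* and *ASNS* held at most 21, 12 and 4 counts in a library.

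Serine is made from the glycolytic intermediate 3-phosphoglycerate by *PHGDH*, *PSAT1* and *PSPH* in turn. Serine hydroxymethyltransferases then split it into glycine and a carbon unit carried by tetrahydrofolate, in the cytosol and in mitochondria, and the mitochondrial route ends in formate that feeds nucleotide synthesis. Cysteine can be made from homocysteine through cystathionine, which draws on serine, and asparagine is made from aspartate and glutamine. Many genes of this group are known targets of ATF4, the transcription factor of the integrated stress response. ATF4 with a C/EBP partner binds the C/EBP-ATF response element, and the element in the *ASNS* promoter is a textbook case.

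After DSF/Cu the 10 genes did not move together. *CTH*, *ASNS*, *MTHFD2* and *PHGDH* rose, *SHMT1*, *PSPH*, *PYCR1* and *MTHFD1L* fell, and *PSAT1* and *SHMT2* did not pass the test. Thus 8 of 10 were called, against 35.2% of the 18229 genes tested: 4 of 10 rose, where 18.5% of all rose, and 4 of 10 fell, where 16.8% of all fell (edgeR's quasi-likelihood test, Benjamini-Hochberg adjusted p under 0.05 over all genes tested). Since the genes were chosen with earlier results of these data known, these shares and those below are a description only. The calls of *PHGDH* and *MTHFD1L* were kept in 7 and 10 of 15 alternative settings. The median log2 change was 0.10 over the 10 genes and 0.00227 over all genes tested. In TMM-scaled CPM, DSF/Cu and DMSO libraries did not overlap for 9 of the 10 genes, against 51.2% of all genes tested. Of these 9, 5 lay wholly higher in DSF/Cu, against 26% of all, and 4 wholly lower, against 25.2%. In FPKM, which has no TMM scaling, *SHMT2* overlapped and *PSAT1* lay wholly lower in DSF/Cu. *CTH* was 5.50-fold higher, and the other changes that passed lay between 1.53-fold lower (*SHMT1*) and 1.60-fold higher (*ASNS*).

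The promoters of 3 genes are printed for the changes they stand beside: *ASNS*, which rose and holds the core of the C/EBP-ATF response element, *MTHFD1L*, which fell and holds it too, and *CTH*, which rose most and has no such core in the window. The sequences are from RefSeq (GRCh38.p14), 5′ to 3′ on the gene's strand, from 250 bases before to 50 bases after the start. Capitals mark the core TGATGNAA, searched on both strands. The first is chr7:97872359-97872658 (minus strand), the next is chr6:150866236-150866535 (plus strand) and the last is chr1:70411018-70411317 (plus strand).
ASNS: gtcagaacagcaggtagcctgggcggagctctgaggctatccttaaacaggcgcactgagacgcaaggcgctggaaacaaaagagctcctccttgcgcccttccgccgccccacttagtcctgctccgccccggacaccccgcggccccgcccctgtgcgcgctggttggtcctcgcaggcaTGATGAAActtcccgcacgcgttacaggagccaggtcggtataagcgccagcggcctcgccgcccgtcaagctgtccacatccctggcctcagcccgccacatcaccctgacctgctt
MTHFD1L: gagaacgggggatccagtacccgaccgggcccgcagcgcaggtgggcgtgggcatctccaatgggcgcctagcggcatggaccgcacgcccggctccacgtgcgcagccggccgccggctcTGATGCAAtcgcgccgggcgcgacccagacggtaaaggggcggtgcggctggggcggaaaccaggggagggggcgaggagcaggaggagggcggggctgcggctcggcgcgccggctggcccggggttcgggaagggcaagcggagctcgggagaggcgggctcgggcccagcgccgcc
CTH: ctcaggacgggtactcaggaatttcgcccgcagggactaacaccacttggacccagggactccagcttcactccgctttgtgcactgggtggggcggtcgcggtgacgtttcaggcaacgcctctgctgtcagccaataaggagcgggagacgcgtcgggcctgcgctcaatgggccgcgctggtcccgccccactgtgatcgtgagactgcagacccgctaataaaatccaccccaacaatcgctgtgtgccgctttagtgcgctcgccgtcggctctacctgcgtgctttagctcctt

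RefSeq promoters were matched for 7 of the 10 genes, in 11 windows since some genes have several starts. *ASNS* and *MTHFD1L* were the 2 genes with the core in at least 1 window. It occurs in 3.62% of all 35116 promoter windows of the same length, a share per window and not per gene. In *ASNS* it begins 68 bases before the start. In *MTHFD1L* it begins 129 bases before the start printed, and the windows of 2 other starts nearby overlap the same site, while the window of a distant start (chr6:151006758-151007057) does not hold the core. Nor does the window of the other *ASNS* start (chr7:97872116-97872415). The core TGACNNNGC of the antioxidant response element, the site of NRF2, was in the promoter of *MTHFD2* alone among the 7, against 13.3% of all promoters. The E-box CACGTG was in that of *MTHFD1L* alone, against 7.26%. A match is a description of letters and shows no binding.

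**Figure D1:**
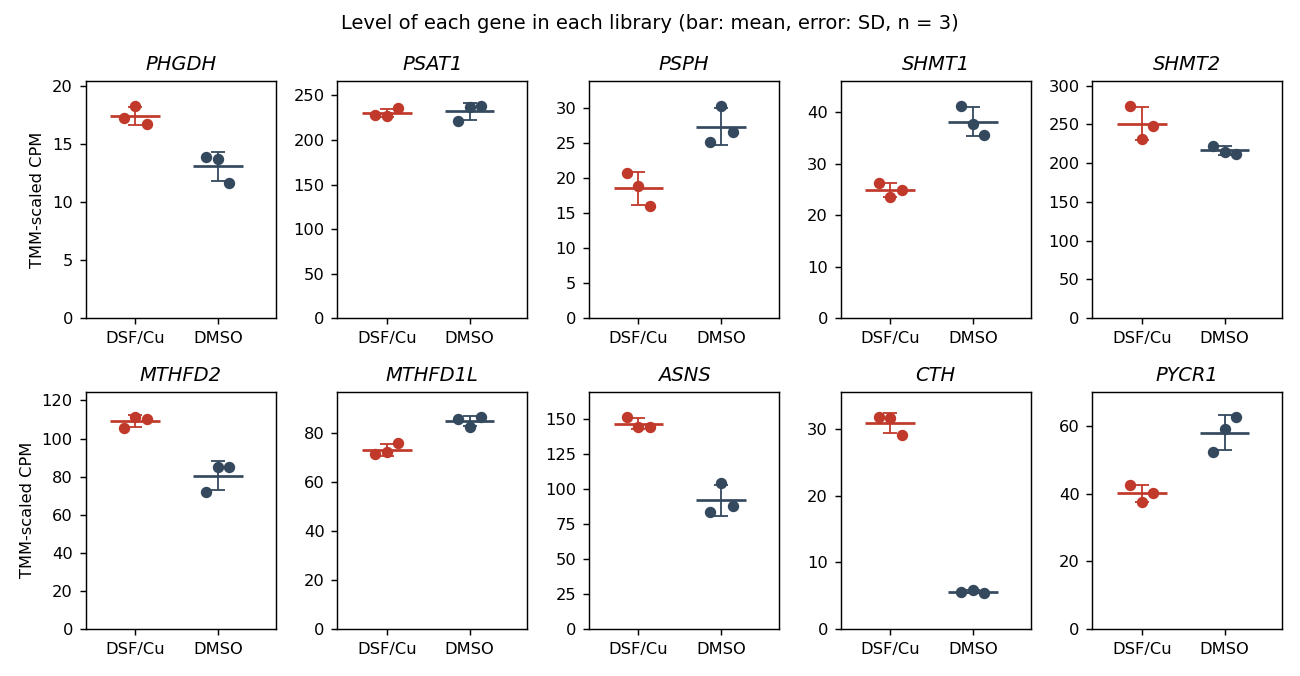
TMM-scaled CPM (y axis, from 0) in each library for the 10 genes, with DSF/Cu on the left and DMSO on the right of each panel. Points are libraries, bars are means and error bars are SDs (n = 3 each). Only *PSAT1* has groups that overlap in this measure.

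The 3 genes of serine synthesis went 3 ways. *PHGDH* (ENSG00000092621, chr1:119648411-119744226), the dehydrogenase of the first step, had 17.2, 18.2 and 16.7 CPM in the DSF/Cu libraries, against 13.9, 13.7 and 11.6 CPM in the DMSO libraries. Every DSF/Cu library lay above every DMSO library, and the log2 change was 0.41 ± 0.11 (SE, edgeR adjusted p = 0.0246). This call was not firm: it was lost under total-count scaling (log2 change 0.227, edgeR adjusted p = 0.153), in both fits to FPKM, with no filter on low counts (edgeR adjusted p = 0.0537), and without DMSO replicate 2 or 3 or DSF/Cu replicate 1 or 2 (edgeR adjusted p from 0.0549 to 0.0747).

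*PSAT1* (ENSG00000135069, chr9:78297125-78330093), the aminotransferase of the next step, had 228.0, 227.0 and 236.0 CPM in DSF/Cu libraries, against 221.5, 237.1 and 237.6 CPM in DMSO libraries. The groups overlapped in CPM, and the log2 change was -0.01 ± 0.05 (95% interval -0.13 to 0.11, edgeR adjusted p = 0.893). In FPKM every DSF/Cu library (81.1 to 87.0) lay below every DMSO library (91.2 to 97.0). Under total-count scaling *PSAT1* was called lower (log2 change -0.196, edgeR adjusted p = 0.0244), and the median of all genes then lay at -0.182. Both fits to FPKM also called it lower (limma adjusted p = 0.0209 with either pseudocount), so that it was called in 3 of 15 alternatives.

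*PSPH* (ENSG00000146733, chr7:56011051-56051467), the phosphatase that releases serine, had 20.7, 18.9 and 16.0 CPM in DSF/Cu libraries, against 25.1, 30.2 and 26.6 CPM in DMSO libraries. The groups did not overlap and *PSPH* fell by 0.56 ± 0.13 on the log2 scale (SE, edgeR adjusted p = 0.0147). It stayed called in all 15 alternatives, with adjusted p up to 0.0495. The pseudogene *PSPHP1* took at most 116 counts in a library and was not called (log2 change -0.26 ± 0.26, edgeR adjusted p = 0.486).

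Among the genes that pass carbon from serine to folate, both of the cytosolic and mitochondrial pair of hydroxymethyltransferases were well counted. *SHMT1* (ENSG00000176974, chr17:18327860-18363563), the cytosolic enzyme, had 26.3, 23.6 and 24.9 CPM in DSF/Cu libraries, against 41.1, 37.8 and 35.6 CPM in DMSO libraries. It fell by 0.62 ± 0.09 (log2, SE, edgeR adjusted p = 0.00229), and all DSF/Cu values lay below all DMSO values. *SMCR8*, on the opposite strand, shares 197 bases with *SHMT1* and changed the other way (0.80 ± 0.07, edgeR adjusted p = 3.66e-04), and without a stated strand setting the reads of the shared stretch cannot be assigned.

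*SHMT2* (ENSG00000182199, chr12:57229573-57234935), the mitochondrial enzyme, had 273.1, 230.8 and 247.7 CPM in DSF/Cu libraries, against 222.6, 214.2 and 212.2 CPM in DMSO libraries. The groups did not overlap in CPM, though in FPKM they did (40.4 to 46.6 in DSF/Cu, 41.6 to 44.0 in DMSO). The change of 0.21 ± 0.07 (log2, SE, 95% interval 0.04 to 0.38) did not pass (edgeR adjusted p = 0.0584). It was called higher in 3 of 15 alternatives, one of them without DSF/Cu replicate 2 (0.271, edgeR adjusted p = 0.0347), and lay at 0.0245 under total-count scaling.

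*MTHFD2* (ENSG00000065911, chr2:74198610-74215298), the mitochondrial dehydrogenase and cyclohydrolase that oxidises the carbon unit, had 105.6, 111.2 and 110.4 CPM in DSF/Cu libraries, against 71.8, 85.0 and 84.8 CPM in DMSO libraries. DMSO replicate 1 was the lowest, the groups did not overlap, and *MTHFD2* rose by 0.44 ± 0.08 (log2, SE, edgeR adjusted p = 0.00686). Under total-count scaling the rise was 0.253 (edgeR adjusted p = 0.0462).

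*MTHFD1L* (ENSG00000120254, chr6:150865549-151101887), the mitochondrial synthetase that releases formate, had 71.2, 72.4 and 75.7 CPM in DSF/Cu libraries, against 85.6, 82.3 and 86.4 CPM in DMSO libraries. It fell by 0.21 ± 0.05 (log2, SE, edgeR adjusted p = 0.0238) with no overlap between groups. The call was lost with the replicate number as a block (edgeR adjusted p = 0.0582) and without DMSO replicate 1 or 3 or DSF/Cu replicate 1 or 2 (edgeR adjusted p from 0.0610 to 0.0770), with the direction kept, and the fall was larger under total-count scaling (-0.400).

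*ASNS* (ENSG00000070669, chr7:97851677-97872542), which makes asparagine, had 151, 144 and 144 CPM in DSF/Cu libraries, against 83.5, 104 and 87.9 CPM in DMSO libraries. The lowest DSF/Cu library was well above the highest DMSO library, and *ASNS* rose by 0.68 ± 0.09 (log2, SE, edgeR adjusted p = 0.00203). A gene on the same strand, *AC079781* (ENSG00000284707), covers 20855 bases of the *ASNS* locus. It had 152, 231 and 140 counts in DSF/Cu libraries against 432, 299 and 444 in DMSO libraries, and it fell by 0.85 ± 0.24 (log2, SE, edgeR adjusted p = 0.0338). How the authors split reads between overlapping genes is not given in the sources used here, so this small count is uncertain.

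*CTH* (ENSG00000116761, chr1:70411218-70439851), which cleaves cystathionine to cysteine, had 31.8, 31.7 and 29.1 CPM in DSF/Cu libraries, against 5.60, 5.89 and 5.33 CPM in DMSO libraries. The raw counts were 1793, 1831 and 1540 after DSF/Cu and 427, 395 and 352 in DMSO. The log2 change was 2.46 ± 0.09 (SE, edgeR adjusted p = 2.53e-05), above that of 96.4% of genes tested, and over the 15 alternatives it lay between 1.86 and 2.51 and passed in each. *CBS*, which makes the cystathionine that *CTH* uses, was listed with 0 counts in all 6 libraries, as was its near-identical copy *CBSL*. How reads shared by near-identical copies were treated is not given in the sources used here, so no level of *CBS* can be read from these zeros.

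*PYCR1* (ENSG00000183010, chr17:81932384-81941079), a mitochondrial reductase that completes proline, had 42.5, 37.6 and 40.1 CPM in DSF/Cu libraries, against 52.4, 59.2 and 62.7 CPM in DMSO libraries. The groups did not overlap, and *PYCR1* fell by 0.54 ± 0.09 (log2, SE, edgeR adjusted p = 0.00489). It passed in all 15 alternatives.

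**Figure D2:**
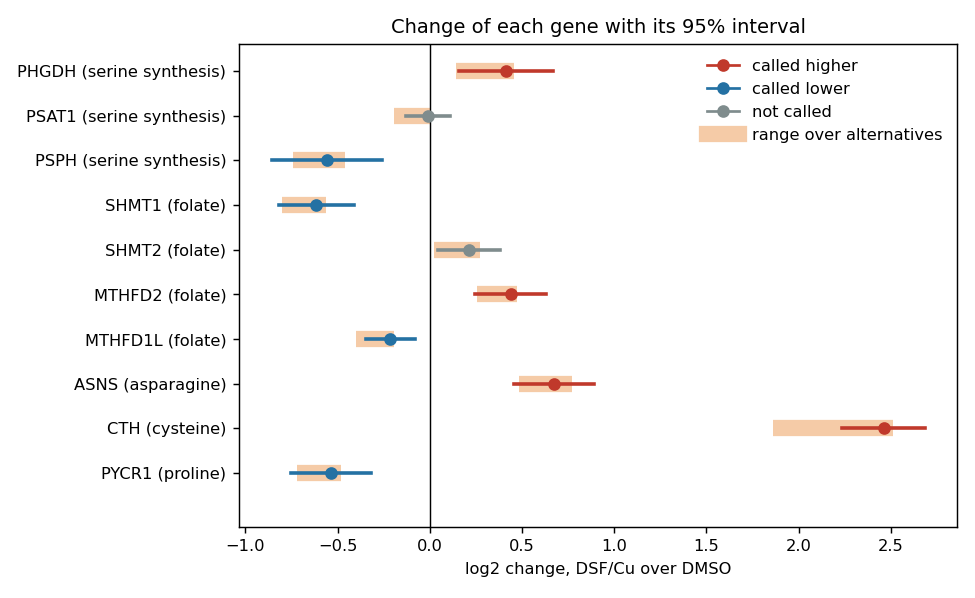
Log2 change of each gene, DSF/Cu over DMSO (x axis), with its 95% interval as a line, coloured by call, and the range over the 15 alternatives as a pale band. *CTH* stands at 2.46, 4 genes lie wholly below 0, and *PSAT1* is centred on 0.

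Compared per length, in FPKM, the 10 genes spanned a wide range. In DSF/Cu the order was *PSAT1* (83.6 ± 3.02 FPKM, SD, n = 3), *SHMT2* (43.6 ± 3.11), *ASNS* (24.0 ± 0.271), *MTHFD2* (18.1 ± 0.816), *MTHFD1L* (11.6 ± 0.572), *PYCR1* (11.1 ± 0.567), *CTH* (10.2 ± 0.389), *PSPH* (5.34 ± 0.602), *SHMT1* (2.73 ± 0.112) and *PHGDH* (1.5 ± 0.0679). In DMSO *PSAT1* (94.8 ± 3.17 FPKM) and *SHMT2* (42.5 ± 1.34) also led, *CTH* (2.09 ± 0.102) and *PHGDH* (1.27 ± 0.123) were the lowest, and *PYCR1*, *ASNS*, *MTHFD1L* and *MTHFD2* lay between 15.1 and 18.1 FPKM.

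In each order most neighbours were separated in every library. The exceptions in DSF/Cu were *MTHFD1L* with *PYCR1* and *PYCR1* with *CTH*, and in DMSO the neighbours among *PYCR1*, *ASNS*, *MTHFD1L* and *MTHFD2*. *CTH* thus stood in place 7 after DSF/Cu and in place 9 in DMSO, and *PYCR1* in place 6 after DSF/Cu and in place 3 in DMSO. Summed over the 10 genes the level was 211.9 ± 3.91 FPKM in DSF/Cu and 219.6 ± 5.79 FPKM in DMSO (SD, n = 3 each), of which *PSAT1* made 39.5% in DSF/Cu and 43.2% in DMSO. The low *PHGDH* level beside the high *PSAT1* level was seen in every library of both groups. FPKM carries no TMM scaling, so it is used here for levels and for ratios within a library. The order between genes depends on the gene lengths used for FPKM, which were not checked. In CPM, which is not divided by length, *PHGDH* averaged 13.1 in DMSO, above *CTH* at 5.61. In DSF/Cu *PHGDH* averaged 17.4 CPM, close to *PSPH* at 18.5 CPM.

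**Figure D3:**
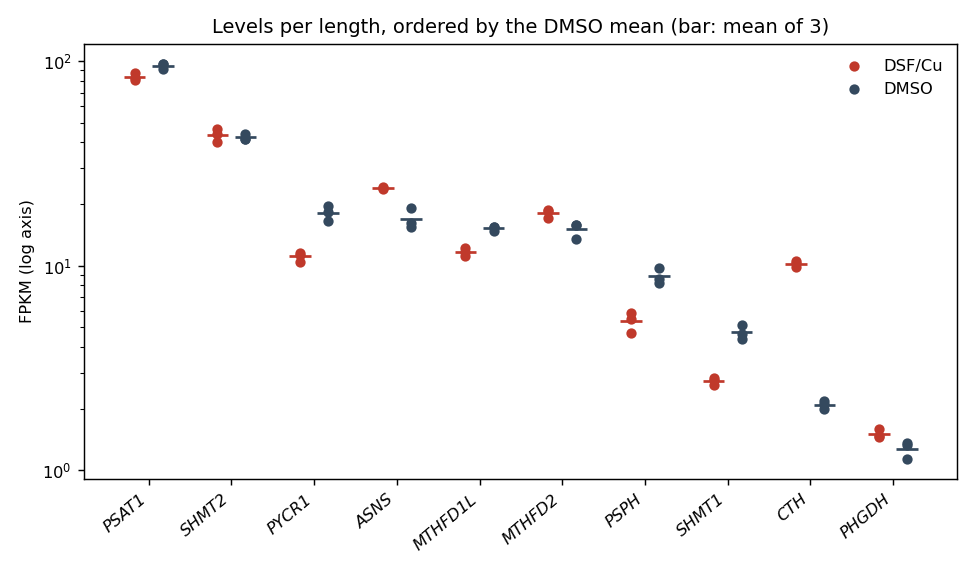
FPKM on a log axis for each gene and library, DSF/Cu left of DMSO, ordered by the DMSO mean. Points are libraries and bars are means of 3. *PSAT1* is at the top and *PHGDH* at the bottom in both groups, and *CTH* is the gene whose groups lie farthest apart.

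Ratios within a library do not depend on scaling. The log2 ratio of *SHMT2* to *SHMT1* was 4.05, 3.96 and 3.99 in DSF/Cu libraries, against 3.10, 3.17 and 3.24 in DMSO libraries, a difference of 0.83. Per length, the *SHMT2* level was thus 16.0 times that of *SHMT1* in DSF/Cu and 9.02 times in DMSO. These multiples depend on the gene lengths used for FPKM. With TMM-scaled CPM in place of FPKM the log2 difference between groups was 0.823. The log2 ratio of *MTHFD2* to its paralog *MTHFD2L* was 3.02, 2.91 and 3.06 in DSF/Cu libraries, against 2.29, 2.48 and 2.45 in DMSO libraries, a difference of 0.59. In both cases the groups did not overlap (exact two-sided permutation p = 0.1, the smallest that 3 against 3 allows, and adjusted p = 0.2 over the 4 ratios).

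The groups overlapped for the ratio of *MTHFD1L* to *MTHFD1*, the cytosolic enzyme that joins the same folate steps, which averaged -0.26 ± 0.08 in DSF/Cu and -0.40 ± 0.08 in DMSO (log2, SD, n = 3 each, exact permutation p = 0.2, adjusted p = 0.267 over the 4 ratios). *MTHFD1* itself fell by 0.36 ± 0.05 (log2, SE, edgeR adjusted p = 0.00298; -0.543 under total-count scaling). *MTHFD2L* was not called (-0.15 ± 0.08, edgeR adjusted p = 0.215), though it was called lower under total-count scaling (-0.330, edgeR adjusted p = 0.0218).

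**Figure D4:**
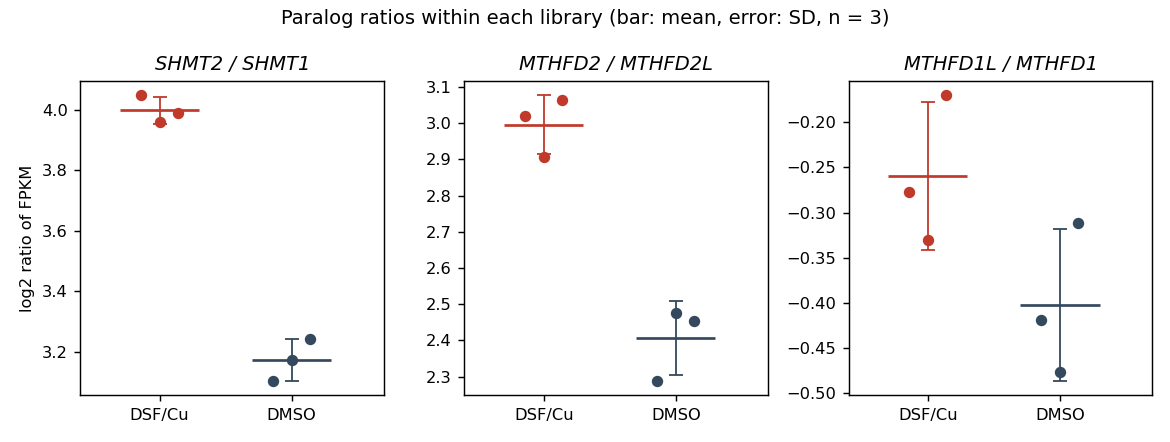
Log2 ratio of FPKM between paired genes in each library, DSF/Cu left of DMSO, with means and SDs (n = 3 each); each panel has its own y axis, which does not start at 0. The first 2 panels show groups that do not overlap, with differences of 0.83 and 0.59, and the last shows groups that do.

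Around these enzymes, 51 further genes of the same pathways were tested, of which 4 rose and 15 fell, with a median log2 change of -0.24. That is 37.3% called in either direction, near the 35.2% of all genes tested. By direction, 4 of 51 rose, where 18.5% of all genes rose, and 15 of 51 fell, where 16.8% of all fell. The counts of the separate lists are to be read against the same shares by direction. Under total-count scaling 3 of the 51 rose and 23 fell, when 2356 of all 18229 genes rose and 4856 fell. On the proline list 3 of 6 tested genes fell and none rose, in each of the 15 alternatives. *PYCR3*, a cytosolic reductase, averaged 12.4 ± 2.00 CPM in DSF/Cu and 30.1 ± 3.54 CPM in DMSO and fell by 1.28 ± 0.15 (log2, SE, edgeR adjusted p = 0.00121). *ALDH18A1*, the synthase that makes the precursor of the reductases, averaged 109.1 ± 4.57 CPM in DSF/Cu and 159.8 ± 5.56 CPM in DMSO and fell by 0.55 ± 0.06 (edgeR adjusted p = 7.58e-04). *PYCR1* thus fell beside both of these genes.

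Of 15 further folate genes 4 fell, where 16.8% of all genes fell, and 1 was called higher, where 18.5% of all rose. In either direction 33.3% were called, against 35.2% of all genes. Under total-count scaling and in both fits to FPKM 7 fell. *FPGS*, which adds glutamates to folate, fell by 0.56 ± 0.10 (log2, SE, edgeR adjusted p = 0.00659). *FTCD*, a formiminotransferase of histidine breakdown, had 99, 30 and 30 counts in DSF/Cu libraries against 0 in each DMSO library. It is the 1 gene of the list called higher, and it passed the filter on low counts through the DSF/Cu libraries alone, so its call is not read as a result. Of 14 further genes of the methionine cycle and transsulfuration 5 fell and 1 rose. Falls numbered 3 when DMSO replicate 3 or DSF/Cu replicate 2 was left out and with the replicate block. They numbered 7 under total-count scaling and in both fits to FPKM. *MTR*, methionine synthase, fell by 0.78 ± 0.10 (log2, edgeR adjusted p = 0.00195) and *MPST*, a sulfurtransferase, by 0.76 ± 0.08 (edgeR adjusted p = 9.75e-04). *SQOR*, a sulfide oxidase, was the gene that rose, by 0.22 ± 0.07 (edgeR adjusted p = 0.0483), and this call was weak: it was lost in 7 of the 9 alternatives that kept all libraries, among them DESeq2 (adjusted p = 0.0603), the replicate block (edgeR adjusted p = 0.0687) and total-count scaling (0.0372, edgeR adjusted p = 0.730).

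Of 7 further serine and glycine genes 1 rose and 1 fell, with 2 falls under total-count scaling and 3 in both fits to FPKM. *SLC1A4*, a plasma membrane transporter of serine and other small neutral amino acids, averaged 6.92 ± 1.52 CPM in DSF/Cu and 3.35 ± 0.403 CPM in DMSO and rose by 1.04 ± 0.21 (log2, SE, edgeR adjusted p = 0.00908). *SFXN1*, which carries serine into mitochondria, fell by 0.41 ± 0.06 (edgeR adjusted p = 0.00219). Of 10 further genes of asparagine and aspartate metabolism 1 rose and 2 fell. There were 2 rises without DMSO replicate 2, with RLE scaling and with a minimum of 100 counts over the libraries. Falls numbered 4 under total-count scaling and in both fits to FPKM, and 3 with DESeq2 and without DMSO replicate 3. *ASL*, argininosuccinate lyase, fell by 0.70 ± 0.10 (edgeR adjusted p = 0.00228) and *NARS2*, the mitochondrial asparaginyl-tRNA synthetase, by 0.57 ± 0.08 (edgeR adjusted p = 0.00227).

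Among regulators and feedback genes of the ATF4 pathway 13 of 17 rose and 3 fell, where 18.5% of all genes rose and 16.8% fell. The median log2 change of the 17 was 0.91. Leaving out 1 library gave 12 to 13 rises, and 1 fall in place of 3 without DMSO replicate 1 or without DMSO replicate 3. *ATF4* itself averaged 563.9 ± 19.8 CPM in DSF/Cu and 384.5 ± 8.30 CPM in DMSO and rose by 0.55 ± 0.05 (log2, SE, edgeR adjusted p = 3.55e-04; 0.367 under total-count scaling). *CEBPB*, a C/EBP factor, rose by 1.51 ± 0.05 (edgeR adjusted p = 1.88e-05). *ATF5* had the largest fall on the list, by 0.72 ± 0.18 (log2, SE, edgeR adjusted p = 0.0230). Kinases on this list did not move together. *EIF2AK4*, the GCN2 kinase that senses amino acid lack, fell by 0.36 ± 0.07 (edgeR adjusted p = 0.00901, and -0.539 under total-count scaling). *EIF2AK2*, the kinase PKR, fell by 0.37 ± 0.09 (edgeR adjusted p = 0.0166). *EIF2AK3*, the kinase PERK, rose by 0.45 ± 0.06 (edgeR adjusted p = 0.00272). *EIF2AK1* was not called (0.03 ± 0.07, edgeR adjusted p = 0.754). On a separate list of regulators around MYC and NRF2, 3 of 5 tested genes rose and none fell. Only 2 rose under total-count scaling, in both fits to FPKM and with the replicate block. The same held without DMSO replicate 1 or 3 or DSF/Cu replicate 2. *MYC* itself was not called (0.61 ± 0.96, edgeR adjusted p = 0.671) and varied widely within groups. It had 11816, 10794 and 3865 counts in DSF/Cu libraries against 548, 10139 and 9905 in DMSO libraries. *NFE2L2*, which encodes NRF2, rose by 0.72 ± 0.04 (edgeR adjusted p = 1.00e-04), and *BACH1*, a repressor that binds the antioxidant response element, rose by 0.76 ± 0.08 (edgeR adjusted p = 7.64e-04).

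**Figure D5:**
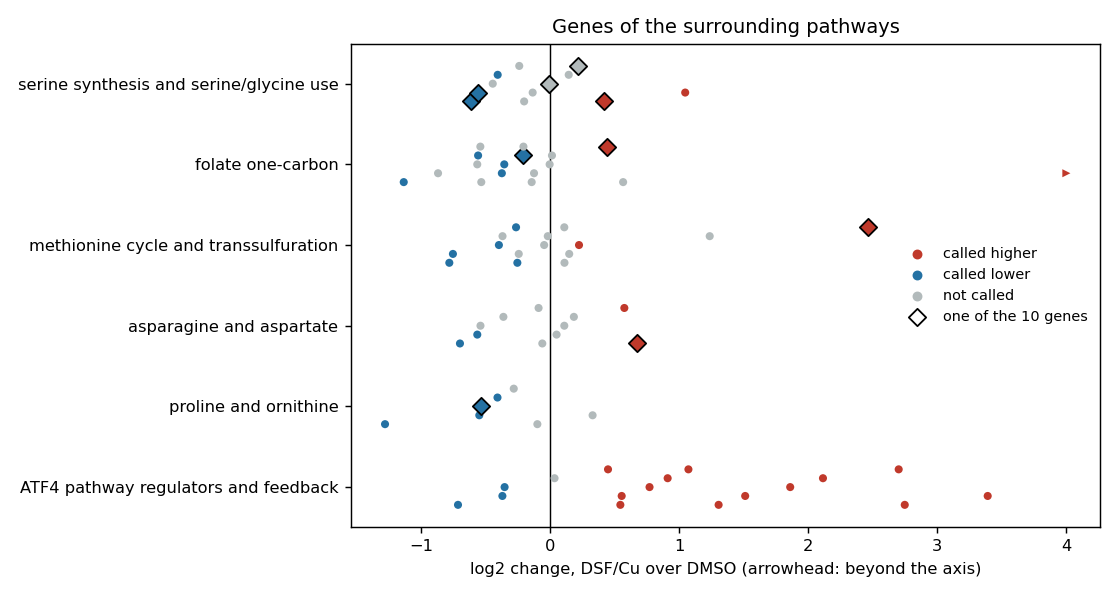
Log2 change, DSF/Cu over DMSO (x axis), of each tested gene on the 5 pathway lists and the list of ATF4 regulators and feedback genes (rows). The 10 genes are diamonds, and vertical spread within a row has no meaning. Called genes of the proline row all lie below 0, 13 called genes of the ATF4 row lie above 0, and the arrowhead is *FTCD*, which had 0 counts in DMSO.

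Total counts per library were 55563223 to 61633168 in DSF/Cu and 62165212 to 70883177 in DMSO. The 20 most counted genes held 14.7% to 16.0% of counts in DSF/Cu libraries and 10.7% to 11.2% in DMSO libraries. Under total-count scaling the median log2 change of all genes tested was -0.182, against 0.00227 with TMM. Values under that scaling are given beside some genes only. Other genes moved too, such as *ASNS* (to 0.49), *SHMT1* (to -0.802) and *PYCR1* (to -0.721). *EIF2AK1*, not called, took the opposite sign (-0.152, edgeR adjusted p = 0.144). Markers of the line were expressed, with 6 genes such as *VIM* summing to 602 to 660.5 FPKM in DSF/Cu and 897 to 951.5 FPKM in DMSO. Of these 6, 4 fell and none rose, where 16.8% of all genes fell and 18.5% rose. *AXL* (log2 change -0.755, edgeR adjusted p = 1.39e-04), *KRT18* (-0.597), *VIM* (-0.27) and *EGFR* (-0.237) were those that fell. *ESR1*, *PGR* and *ERBB2* summed to at most 3.33 FPKM in DSF/Cu and 6.61 FPKM in DMSO. *ERBB2* also fell (-0.807, edgeR adjusted p = 9.37e-04). Markers of other cell types were low: immune genes summed to at most 1.07 FPKM in DSF/Cu and 0.240 FPKM in DMSO, fibroblast genes to at most 0.740 FPKM in DSF/Cu and 0.295 FPKM in DMSO, endothelial genes to at most 0.101 FPKM in DSF/Cu and 0.0653 FPKM in DMSO, and adipocyte genes to at most 3.00e-04 FPKM in DSF/Cu and 0.0271 FPKM in DMSO. *CD3E*, *DCN*, *CDH5*, *ADIPOQ* and *LEP* had 0 counts in every library. Genes with 0 counts carry a placeholder of 1e-04 FPKM, so the adipocyte sum in DSF/Cu is made of placeholders and is no measured level. *CD14*, an immune marker, had 127, 67 and 77 counts in DSF/Cu libraries against 17, 30 and 8 in DMSO libraries and rose by 2.61 ± 0.54 (log2, SE, edgeR adjusted p = 0.0106). *COL1A1*, a fibroblast collagen, had 333, 311 and 366 counts in DSF/Cu libraries against 247, 100 and 135 in DMSO libraries and rose by 1.42 ± 0.30 (log2, SE, edgeR adjusted p = 0.0115). The immune sum in DSF/Cu approached the FPKM of *PHGDH*, the lowest of the 10 genes in that measure. The part of these markers in the results was not tested.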

How the data were processed

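Poly(A) RNA was sequenced as paired-end libraries, per the labels' protocols. The authors deposited whole-number counts per gene with no scaling, and FPKM values (scaled for gene length and depth), per the file headers. The submitters' processing notes list Bowtie 0.12.2, HISAT2 2.0 and StringTie 1.3.0 with no roles, and a mouse build, but the gene IDs are human: 58552 of 58825 occur in GENCODE 29 (GRCh38). All 10 genes lie on the chromosome given there, 4 with the same start and end. The counting tool, its strand setting and the annotation release are not stated in the notes or headers. Columns headed Control were taken as DMSO, the only untreated group.

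Counts were filtered with filterByExpr (18229 genes), scaled by TMM and compared in edgeR 4.0.16 (R 4.3.3) by its two-sided quasi-likelihood test, with Benjamini-Hochberg adjusted p over the whole table tested; 8151 genes had an unadjusted p under 0.05. The standard error is the absolute log2 change over the square root of F, and intervals cover 95%. Alternatives used other scalings and filters, DESeq2 1.42.0, limma 3.58.1 on FPKM, a replicate block and each replicate left out. Steps were tested on simulated data. No library is a copy of another of its group (chi-square per degree of freedom 45.7 or more). The genes, the lists around them and the tests were chosen with earlier results of these data known. Named beside the 10 genes are their ratio partners, *ATF4* and up to 2 called genes per list and direction by adjusted p; some of these, and 1 of the 4 ratios, are not reported here. *AC079781*, *SMCR8*, *PSPHP1* and *CBSL* were named for sharing a locus or sequence. *EIF2AK1* and *EIF2AK3* were named beside the kinases that fell, and *MYC* because its list bears its name. *ATF5* was named as the remaining gene of its list that fell, and cell type markers were named as markers.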

Additional observations from a re-analysis of the deposited data

How the results depend on the processing

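*CTH*, *ASNS*, *MTHFD2*, *SHMT1*, *PSPH* and *PYCR1* kept direction and call in all 15 alternatives. *PHGDH* was called in 7 of 15 and *MTHFD1L* in 10 of 15, with the direction kept. *PSAT1*, not called with TMM, was called lower in 3 of 15; it took the opposite sign at 0.0016 with RLE scaling and at 0.00037, 0.00147 and 0.00329 without DMSO replicate 2, DMSO replicate 3 and DSF/Cu replicate 2 (leaving out 1 library, -0.047 to 0.00329). Under total-count scaling 2356 genes rose and 4856 fell (32.7% of calls higher, against 52.4% with TMM), and 23 of the further pathway genes fell. Limma on FPKM changes the model and the filter as well. On log2(FPKM + 1) it gave 1997 rises and 4612 falls (30.2% higher), and on log2(FPKM + 0.1) 1992 rises and 4580 falls (30.3% higher); in each, 2 further pathway genes rose and 24 fell. Leaving out 1 library gave 3 to 4 members called higher and 3 to 4 called lower. Replicate numbers did not pair the samples (correlations of same-numbered deviations 0.0214, -0.00775 and 0.0441). The replicate block gave 4 rises and 3 falls among the 10 genes and 2692 and 2451 over all genes; it cannot change the paralog ratio differences (0.83, 0.59 and 0.14), since the mean of same-numbered differences equals the difference of means. The ratio of *CTH* to *CBS* was not computed because *CBS* had 0 counts. With 3 libraries a group, the exact permutation test of a ratio cannot go below p = 0.1.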
